A study of Mus musculus with 18 samples.

Results

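Vitamin A circulates, is stored and is converted in the liver by a small set of proteins, and 8 genes for them were followed here: Rbp4, Lrat, Rdh11, Rdh16, Dhrs3, Aldh1a1, Cyp26a1 and Cyp26b1. They were taken by gene symbol from a table of 58126 genes in 18 RNA sequencing libraries of mouse liver. The symbols were chosen with earlier results of these data known, so counts over the members are not independent of the data. The study, on C57BL/6 mice, compared a liver-specific knockout of Ftcd (LKO) with wild-type (WT) littermates, with or without the liver carcinogen diethylnitrosamine (DEN). Ftcd encodes a folate-dependent enzyme of histidine breakdown. The 5 groups were untreated liver labelled WT (3 libraries), untreated liver labelled LKO (3), nontumour liver labelled WT from mice given DEN (6), nontumour liver labelled LKO from mice given DEN (3) and tumours labelled LKO from mice given DEN (3). Mice received DEN intraperitoneally on postnatal day 14, at 20 mg/kg, and their livers were collected 12 months after the injection, while untreated mice were 12 months old. All mice were kept on regular chow. What drives the liver-specific deletion is not given in the labels used here, and there was no tumour group labelled WT.

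Retinol reaches hepatocytes from chylomicron remnants and leaves the liver in blood bound to retinol-binding protein 4, the product of Rbp4. Most of the hepatic store lies in stellate cells as retinyl esters, which lecithin retinol acyltransferase, the product of Lrat, makes from retinol. Retinol and retinal are interconverted by short-chain dehydrogenases and reductases, among them the products of Rdh11, Rdh16 and Dhrs3. Retinal is oxidised to retinoic acid by aldehyde dehydrogenases such as that of Aldh1a1. Retinoic acid acts through nuclear receptors, and its cytochrome P450 hydroxylases, encoded by Cyp26a1 and Cyp26b1, clear it. Cyp26a1 is known to be induced by retinoic acid itself.

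The sequence upstream of the Cyp26 genes is shown because retinoic acid receptors bind paired copies of a 6-base element, and a search for such pairs told these members apart. RefSeq promoter windows of build GRCm38.p6, which run from 250 bases before to 50 bases after a gene's start, were found for 8 of the 8 members (13 windows). They were searched on both strands for direct repeats of AGGTCA or AGTTCA with 1, 2 or 5 bases between the copies. The repeat with 5 bases between copies was in 1 member window, that of Cyp26a1, and in 13 of all 32851 windows (0.0396%). With 1 or 2 bases between copies the repeat was in 0 member windows, against 0.0822% and 0.0396% of all windows. TATAAA, a common core promoter element, was in 4 of the 13 member windows and in 13.6% of all windows. The 250 bases before the start are given 5′ to 3′ on the strand of the gene, with matches to these motifs in capitals. For Cyp26a1, at chr19:37697558-37697807 on the plus strand, the capitals mark the repeat from 32 to 16 bases before the start, which reads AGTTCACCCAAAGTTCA on the minus strand. For Cyp26b1, at chr6:84593811-84594060 on the minus strand, they mark TATAAA at 139 to 134 bases before the start.
Cyp26a1: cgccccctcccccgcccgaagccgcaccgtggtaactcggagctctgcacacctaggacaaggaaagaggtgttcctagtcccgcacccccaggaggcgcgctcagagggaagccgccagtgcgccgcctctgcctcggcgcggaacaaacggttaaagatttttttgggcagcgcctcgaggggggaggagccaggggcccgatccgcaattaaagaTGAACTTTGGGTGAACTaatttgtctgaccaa
Cyp26b1: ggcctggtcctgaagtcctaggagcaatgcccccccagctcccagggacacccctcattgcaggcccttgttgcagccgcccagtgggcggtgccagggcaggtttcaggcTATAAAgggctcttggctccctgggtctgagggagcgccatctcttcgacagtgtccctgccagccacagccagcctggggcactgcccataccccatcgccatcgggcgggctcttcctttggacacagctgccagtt
A match is a run of letters and not a measured binding site, and a window without one says nothing about the receptor.

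The values are TPM, a length-corrected share of each library's transcripts. This unit does not carry the read number, and the depth is therefore unknown. The labels do not state whether replicates were separate animals, and p-values may thus measure only the spread between these libraries, which may be technical. Ftcd was at 0.1 to 3.16 TPM in the 9 libraries labelled LKO, but it was also low, at 1.77, 2.36 and 2.5 TPM, in 3 of the 9 labelled WT: number 3 of the untreated group and numbers 1 and 2 of the DEN group. The other 6 libraries labelled WT held 61.17 to 106.1 TPM. The difference in log2(TPM + 1) between LKO and WT was -4.00 in nontumour liver after DEN (exact 2-sided permutation test, p = 0.0238) and -2.81 in untreated liver (exact p = 0.3, where 0.1 is the smallest that 3 against 3 can give). By Xist and Y-linked transcripts, all 9 libraries labelled WT were XX. The 3 untreated LKO libraries were XY, and each LKO group after DEN had 1 XX and 2 XY libraries. Mitochondrially encoded transcripts took 4.24% to 38.82% of TPM in single libraries. Hepatocyte markers, 8 genes including Alb, were present in all libraries, with a summed level of 17448.12 to 95696.68 TPM.

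The 8 genes spanned a wide range of levels. Rbp4 had a median of 2261.71 TPM over the 18 libraries, followed by Aldh1a1 at 101.98, Dhrs3 at 81.13, Rdh16 at 27.36, Rdh11 at 12.82, Cyp26a1 at 8.09, Lrat at 0.7 and Cyp26b1 at 0.16 TPM. Rbp4 exceeded Aldh1a1, Cyp26a1 exceeded Lrat, and Lrat exceeded Cyp26b1 in 18 of 18 libraries. Dhrs3 exceeded Rdh16 in 17 libraries and Rdh16 exceeded Rdh11 in 17. The order was less fixed for Aldh1a1 over Dhrs3, in 12 libraries, and for Rdh11 over Cyp26a1, in 13. Between groups, the ranges of every gene overlapped for each pair of groups next to each other in the order of means.

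**Figure D1:**
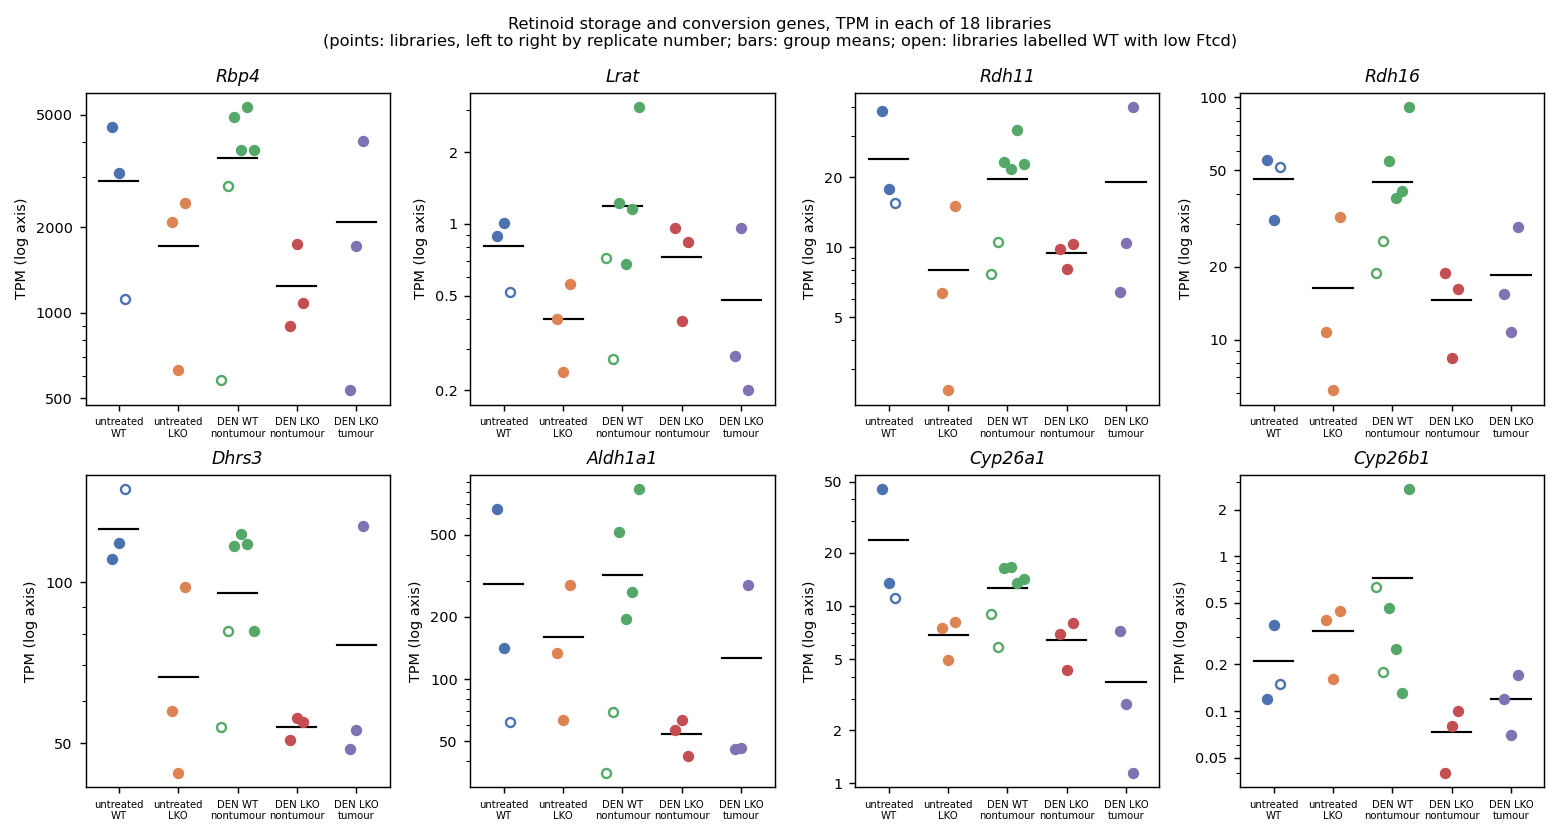
TPM of the 8 genes (vertical log axes, each panel with its own range) in the 5 groups, with 1 point per library in the order of its replicate number and a bar at each group mean; open points are the 3 libraries labelled WT in which Ftcd was low. A reader should see that Lrat and Cyp26b1 are near or below 1 TPM, and that 1 DEN WT library stands above all others in both. Groups next to each other in the order of their means overlap, which is not the order on the axis. Side by side on the axis, untreated WT and untreated LKO do not overlap for Rdh11, Dhrs3 and Cyp26a1. Nor do DEN WT and DEN LKO nontumour liver for Cyp26b1.

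Before the tests, genes had to reach 1 TPM in at least 3 libraries, which 13872 genes did. Of the 8, 7 passed, Lrat with only 4 libraries at or above 1 TPM, and Cyp26b1, with 1 such library, was not tested. Differences are log2 fold changes of TPM + 1, a scale that understates the change of low genes such as Lrat. All p-values are from limma, fitted on all 18 libraries and adjusted by the Benjamini-Hochberg method over the 13872 genes, with a threshold of 0.05. None of the 7 tested genes passed in any of the 6 comparisons between groups, or in the test of whether the genotype effect differed with DEN. Of all tested genes, 0.433% passed in untreated LKO against WT, 0.0577% in DEN LKO nontumour liver against DEN WT, 0.497% in tumours against DEN WT, 0.0649% in DEN LKO nontumour against untreated LKO liver and 0% in the other 3 tests.

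Rbp4, the carrier that takes retinol out of the liver (ENSMUSG00000024990, chr19:38116629-38125281, minus strand, mm10), was the most abundant of the 8. Untreated WT libraries held 4519.11, 3104.89 and 1120.39 TPM, and untreated LKO libraries held 2086.95, 628.78 and 2436.47 TPM. The 6 DEN WT libraries ran from 579.33 to 5322.81 TPM with a median of 3759.06. DEN LKO nontumour liver held 898.02, 1751.96 and 1080.73 TPM, and the tumours held 531.79, 1718.56 and 4037.21 TPM. Within each group the highest library was several-fold above the lowest in all but DEN LKO nontumour liver, and all groups overlapped. The log2 fold change of LKO over WT was -0.77 ± 0.84 (SE) in untreated liver and -1.28 ± 0.73 after DEN, with adjusted p-values of 0.831 and 0.424. With the mitochondrial share of the library as a covariate the signs turned, to 0.49 ± 0.45 and 0.25 ± 0.42, and with a term for XX or XY libraries they were -2.23 ± 1.16 and -2.26 ± 0.89, none of which passed. The untreated value was -0.15 without untreated LKO number 2 and -0.34 without untreated WT number 1. In every fit the term for XX or XY rested only on the LKO groups after DEN, as each other group was all XX or all XY. The XX library of each, number 1, also had the highest mitochondrial share of its group, 36.88% in nontumour liver and 31.44% in tumours. What this term takes out therefore cannot be told apart from that share.

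The spread of Rbp4 went with the mitochondrial share of the library. Over the 18 libraries Pearson's r between log2 levels of Rbp4 and of the share was -0.91 and Spearman's rho was -0.91, each with a permutation p of 1e-05, the smallest that 100000 permutations give (adjusted p 8e-05 over 16 relations). Without the 2 libraries farthest from the median share r was -0.91, with group means removed it was -0.90, and within the 6 DEN WT libraries alone it was -0.95. Removing mitochondrial transcripts from the total left r at -0.89. Aldh1a1 (r -0.79, rho -0.75), Rdh11 (r -0.76, rho -0.80), Rdh16 (r -0.68, rho -0.65) and Dhrs3 (r -0.66, rho -0.57) followed the same way, with permutation p-values of 0.00011, 0.00027, 0.00253 and 0.00421 for r and 0.00044, 0.00013, 0.00469 and 0.0146 for rho. Their adjusted p-values were at most 0.0234, and without the 2 farthest libraries r was -0.69, -0.71, -0.60 and -0.62. With group means removed it was -0.78, -0.70, -0.44 and -0.50, and on TPM rescaled to nonmitochondrial genes -0.72, -0.66, -0.55 and -0.41, so Rdh16 and Dhrs3 were the weaker of the 4. For Cyp26a1, r of -0.47 and rho of -0.48 had permutation p-values of 0.048 and 0.0432 and adjusted p-values of 0.0639 and 0.0629, and r fell to -0.20 without the 2 farthest libraries, so what relation there was rested on them. Lrat (r -0.43, p = 0.0713; rho -0.42, p = 0.0837) and Cyp26b1 (r -0.24, p = 0.379; rho -0.19, p = 0.458) missed the threshold, with permutation p-values. How many of all tested genes follow the share in this way was not computed. The relation is therefore not shown to be particular to these genes. The mean share was 12.47% in untreated WT and 11.96% in DEN WT libraries, against 23.16%, 24.64% and 19.44% in untreated LKO, DEN LKO nontumour and tumour libraries, so it moved with the genotype label, and its part in the differences was not tested.

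**Figure D2:**
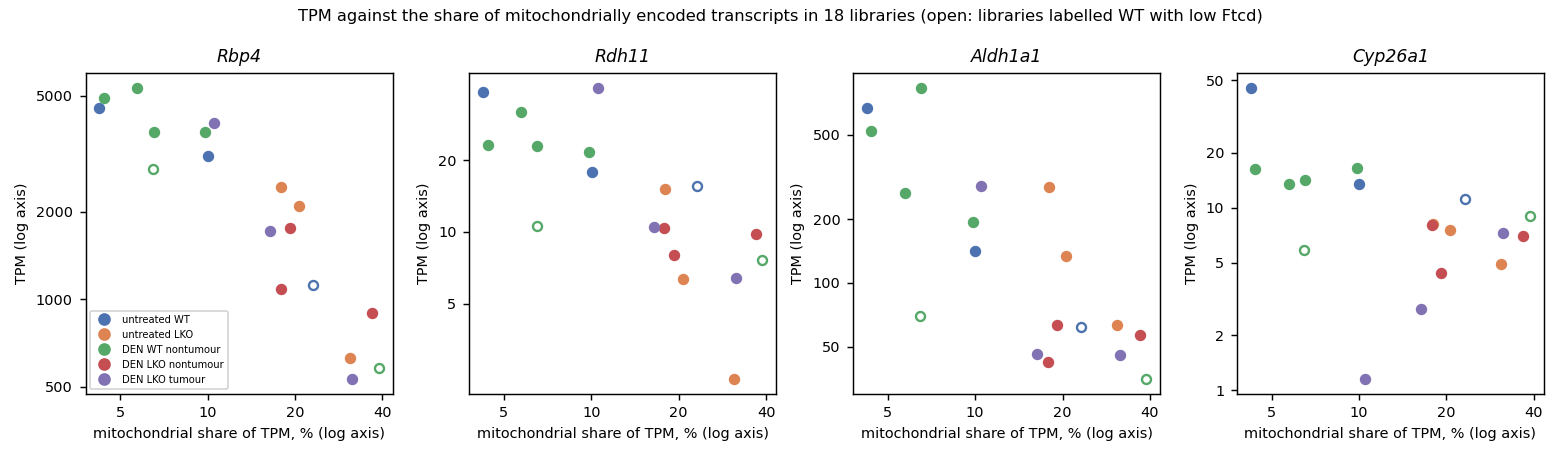
TPM of Rbp4, Rdh11, Aldh1a1 and Cyp26a1 (vertical log axes) against the percentage of TPM from mitochondrially encoded genes (horizontal log axis), with 1 point per library coloured by group; open points are the libraries labelled WT in which Ftcd was low. Rbp4 falls along the share in all groups (r of -0.91), whereas Cyp26a1 is scattered and its lowest values are in tumours with shares of 10.5% and 16.37%.

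Lrat, the retinyl ester synthase of stellate cells (ENSMUSG00000028003, chr3:82892579-82903973, minus strand, mm10), was low throughout. It was at 0.89, 1.01 and 0.52 TPM in untreated WT, at 0.4, 0.24 and 0.56 in untreated LKO, and at 0.27 to 3.1 TPM with a median of 0.94 in DEN WT. DEN LKO nontumour liver held 0.96, 0.39 and 0.84 TPM and the tumours 0.28, 0.96 and 0.2 TPM. The groups overlapped in every comparison. The log2 fold change was -0.36 ± 0.36 (SE) for LKO over WT in untreated liver, -0.25 ± 0.31 for LKO over WT after DEN, and -0.50 ± 0.31 for tumour over DEN WT, with adjusted p-values from 0.637 to 0.831. Without DEN WT number 6, which held 3.1 TPM, the last 2 were -0.05 and -0.30.

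The 16 stellate markers listed for the check of cell types differed in how far they followed Lrat. Pearson's r with Lrat over the 18 libraries, given as a description, ran from 0.04 for Des to 0.87 for Dcn with a median of 0.68, and it was 0.69 for their summed level. Without DEN WT number 6, the library highest in Lrat, left out after its value was seen, the median was 0.59 and the sum gave 0.68. By the rule of the highest Pearson r over the 18 libraries among genes with a mean of at least 5 TPM, the genes most like Lrat were Dcn (0.873), a matrix proteoglycan of mesenchymal cells, Colec11 (0.855), a secreted lectin, and Tom1l1 (0.824), given as a description. Dcn and Colec11 are among the 16 markers. Summed over those 16 genes, none of which was at 0 throughout a group, the level was 203.28 to 458.1 TPM in untreated WT and 94.4 to 153.44 in untreated LKO. It was 127.35 to 409.92 in DEN WT, 125.29 to 371.22 in DEN LKO nontumour liver and 86.78 to 95.5 TPM in tumours. The sum was led by Ecm1, at 33.10 to 391.08 TPM, while Dcn was at 5.10 to 125.79 and Reln, a more restricted stellate marker, at 0.30 to 28.19 TPM. In whole tissue, fewer stellate cells and less RNA per cell cannot be told apart, and the part of cell composition in the Lrat differences was not tested.

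**Figure D3:**
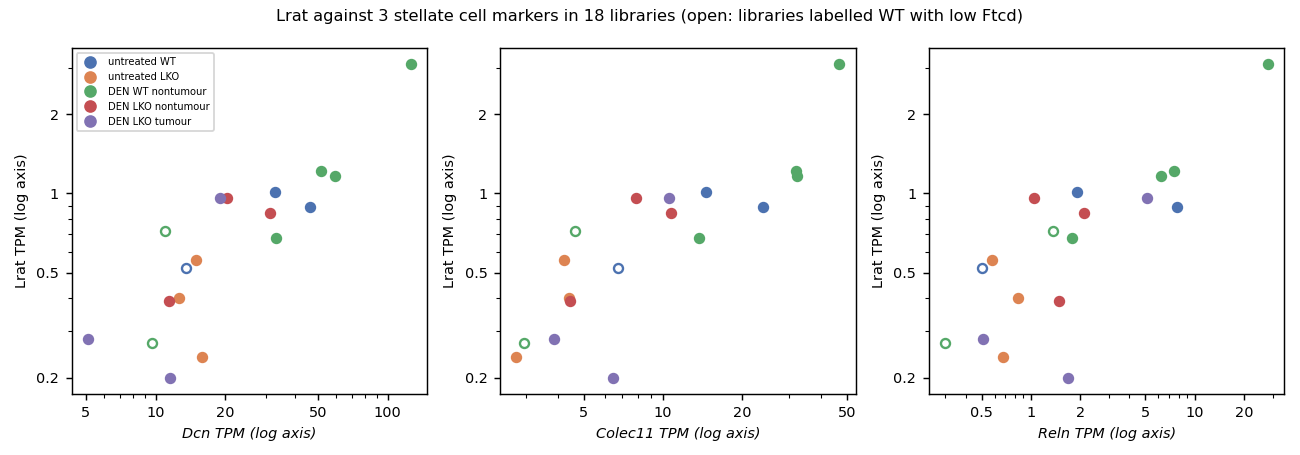
Lrat TPM (vertical log axis) against TPM of the stellate cell markers Dcn, Colec11 and Reln (horizontal log axes), with 1 point per library coloured by group; open points are the libraries labelled WT in which Ftcd was low. The DEN WT library at 3.1 TPM of Lrat also holds the most Dcn, at 125.79 TPM. Of the 3 tumours, 2 are low in Lrat, at 0.28 and 0.2 TPM, as are DEN WT number 2 at 0.27 and untreated LKO number 2 at 0.24 TPM.

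Rdh11, a retinal reductase that also acts on other aldehydes (ENSMUSG00000066441, chr12:79174337-79192293, minus strand, mm10), was at 38.58, 17.78 and 15.57 TPM in untreated WT and at 6.37, 2.42 and 15.1 TPM in untreated LKO. All 3 untreated LKO libraries were below the lowest untreated WT library, by a small margin for number 3. The log2 fold change was -1.64 ± 0.66 (SE; limma adjusted p = 0.831), and with the mitochondrial share as a term it was -0.90 ± 0.54. After DEN it ran from 7.64 to 31.91 TPM (median 22.32) in WT and was 9.85, 8.04 and 10.34 TPM in LKO nontumour liver, which overlapped. The log2 fold change of -0.85 ± 0.57 (SE, limma adjusted p = 0.471) was 0.05 ± 0.50 with that term. Tumours held 6.42, 10.46 and 40.19 TPM, the last being the highest value of any library. The genes most like Rdh11 over the 18 libraries were Erg28 (Pearson r 0.945) and Fdft1 (0.943), of sterol synthesis, and Umps (0.937), of pyrimidine synthesis.

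Rdh16, a dehydrogenase that oxidises retinol and some steroids (ENSMUSG00000069456, chr10:127801152-127846565, plus strand, mm10), was at 55.17, 31.23 and 51.38 TPM in untreated WT and at 10.78, 6.17 and 32.21 TPM in untreated LKO. Untreated LKO number 3 lay just above the lowest WT library, so the groups overlapped. This was a log2 fold change of -1.69 ± 0.61 (SE; limma adjusted p = 0.788). DEN WT libraries held 18.8 to 91.25 TPM with a median of 39.72, and DEN LKO nontumour liver held 18.87, 8.44 and 16.25 TPM. The highest LKO library barely exceeded the lowest WT library, and the log2 fold change was -1.45 ± 0.53 (SE; limma adjusted p = 0.335). With mitochondrial share as a term, LKO over WT was -1.27 ± 0.59 in untreated liver and -0.94 ± 0.55 after DEN (limma adjusted p = 0.725 for the latter). Tumours held 15.4, 10.79 and 29.29 TPM, a log2 fold change of -1.17 ± 0.53 (SE) against DEN WT (limma adjusted p = 0.431). Rdh16 lies among closely related dehydrogenase genes (Rdh7, Rdh9 and Rdh16f2), between which the authors' quantification may divide reads, so its level is less certain.

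Dhrs3, a retinal reductase that retinoic acid is known to induce (ENSMUSG00000066026, chr4:144892827-144928209, plus strand, mm10), varied least of the 8. It was at 110.31, 118.34 and 149.38 TPM in untreated WT and at 57.38, 44.03 and 97.9 TPM in untreated LKO, without overlap. LKO over WT gave a log2 fold change of -0.98 ± 0.45 (SE; limma adjusted p = 0.831). DEN WT libraries held 53.71 to 123.06 TPM (median 99.03), and DEN LKO nontumour libraries were close together at 50.72, 55.63 and 54.75 TPM. Only DEN WT number 1, in which Ftcd was low, fell into the LKO range. After DEN, LKO over WT gave a log2 fold change of -0.77 ± 0.39 (SE; limma adjusted p = 0.396), which was -0.40 with mitochondrial share as a term. Under median-ratio scaling the values without and with DEN were -0.48 and -0.46. Tumours held 48.74, 52.82 and 127.21 TPM, that is 2 values beside the nontumour LKO range and 1 among the highest WT values.

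Aldh1a1, a cytosolic retinal dehydrogenase abundant in hepatocytes (ENSMUSG00000053279, chr19:20492715-20643465, plus strand, mm10), varied most of the 7 tested, with a coefficient of variation of 110.7% over all libraries. Untreated WT libraries held 664.88, 141.92 and 62.34 TPM and untreated LKO libraries held 134.17, 63.57 and 284.75 TPM, in the same range. Its log2 fold change of -0.42 ± 1.06 (SE, adjusted p = 0.887) turned to 0.51 without untreated WT number 1, to 0.11 without untreated LKO number 2 and to 0.99 with mitochondrial share as a term. After DEN the picture was wider: 35.31 to 830.62 TPM (median 229.96) in WT against 56.81, 63.46 and 42.6 TPM in LKO nontumour liver. All 4 DEN WT libraries with high Ftcd were at 194.54 TPM or above, over 3 times the highest of the LKO libraries, and the other 2, at 35.31 and 69.79 TPM, were not. LKO over WT was thus at a log2 fold change of -1.85 ± 0.92 (SE; limma adjusted p = 0.392), but -0.12 once mitochondrial share was a term. In tumours Aldh1a1 was at 46.02, 46.54 and 286.52 TPM, a log2 fold change of -1.19 ± 0.92 (SE, limma adjusted p = 0.732) against DEN WT that turned to 0.05 with the same term. Its near relative Aldh1a7 could share reads with it.

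In DEN LKO nontumour liver over DEN WT, 8 genes passed with all libraries (0.0577% of those tested). Leaving out the 3 libraries labelled WT with low Ftcd raised this number to 1159 (8.35%). In that fit 2 of the 7 genes passed: Aldh1a1, at -2.83 (limma adjusted p = 0.0373), and Rdh16, at -1.87 (limma adjusted p = 0.0456). The libraries left out were chosen by the targeted gene, but the 2 of DEN WT also held the lowest DEN WT values of both members. Aldh1a1 was at 35.31 and 69.79 TPM there, against 194.54 TPM or more in the DEN WT libraries kept. Rdh16 was at 18.8 and 25.42 TPM, against 38.29 TPM or more. Leaving them out thus had to lower both fold changes, and the 2 calls are not independent support. DEN WT number 1 also had the highest mitochondrial share of all, 38.82%, and the part of that was not tested. The summed level of 7 pericentral hepatocyte markers, among them Glul and Cyp2e1, was 663.53 to 961.5 TPM in DEN LKO nontumour liver and 649.44 to 9140.7 TPM (median 7050.42) in DEN WT, so it moved with Aldh1a1 and Rdh16, and its part was not tested.

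Cyp26a1, the main retinoic acid hydroxylase of adult liver (ENSMUSG00000024987, chr19:37697798-37701536, plus strand, mm10), was lowest in tumours. Untreated WT libraries held 45.55, 13.53 and 11.14 TPM and untreated LKO libraries 7.51, 4.93 and 8.15 TPM, without overlap. LKO over WT had a log2 fold change of -1.38 ± 0.55 (SE; limma adjusted p = 0.831), and -0.78 without untreated WT number 1, the highest library of the series. With a term for XX or XY libraries it was -0.52 ± 0.76, and as all untreated WT libraries were XX and all untreated LKO libraries XY, sex and genotype cannot be told apart within them. DEN WT libraries held 5.88 to 16.62 TPM (median 13.86) and DEN LKO nontumour libraries 6.96, 4.36 and 8.04 TPM, a log2 fold change of -0.83 ± 0.47 (SE; adjusted p = 0.426) that was -0.26 ± 0.58 with the term for XX or XY.

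The tumours held 7.23, 2.8 and 1.15 TPM of Cyp26a1. The 2 XY tumours were below every nontumour library of the series, and tumour number 1, which was XX, lay among the nontumour LKO values. Against DEN WT the log2 fold change was -1.67 ± 0.47 (SE, 95% interval -2.67 to -0.67) with a limma adjusted p of 0.137. It passed without tumour number 1 (-2.18, limma adjusted p = 0.0205, where 3.5% of genes passed), without the libraries labelled WT with low Ftcd (-1.99, limma adjusted p = 0.0339, 3.03% of genes) and without the 4 libraries with a mitochondrial share above 30% (-2.25, limma adjusted p = 0.0312, 4.15% of genes), against 0.497% of genes in the fit of all libraries. These settings share libraries, since those above 30% include tumour number 1 and DEN WT number 1, which had low Ftcd. Without tumour number 1 only XY tumours remain, against DEN WT libraries that are all XX. With the term for XX or XY the log2 fold change against DEN WT was -1.10 ± 0.58 (limma adjusted p = 0.535). That term compares number 1 with the other libraries of the LKO groups after DEN. Against DEN LKO nontumour liver the log2 fold change was -0.84 ± 0.55 (SE; limma adjusted p = 0.943), and the ranges overlapped. It was -0.38 without tumour number 3 and -1.35 without tumour number 1. Pericentral markers summed to 1472.19, 160.01 and 2117.03 TPM in tumours 1 to 3, below the DEN WT median of 7050.42 TPM, so they too were lower in tumours than in most DEN WT libraries, and their part was not tested. The genes most like Cyp26a1 over the 18 libraries were Dct (Pearson r 0.877), Wfdc21 (0.846) and Dleu2 (0.83), at lower values than for the other members except Lrat.

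Cyp26b1, the second retinoic acid hydroxylase (ENSMUSG00000063415, chr6:84571414-84593908, minus strand, mm10), was near the bottom of the range. It was at 0.12, 0.36 and 0.15 TPM in untreated WT, 0.39, 0.16 and 0.44 in untreated LKO, 0.13 to 2.71 in DEN WT, 0.04, 0.08 and 0.1 in DEN LKO nontumour liver and 0.12, 0.07 and 0.17 TPM in tumours. All 3 DEN LKO nontumour values were below the lowest of the DEN WT values, 0.13 TPM. Of the tested genes, among which Cyp26b1 is not, 4.06% did not overlap in this comparison, in either direction. As the depth is unknown, it is not known whether so small a margin can be resolved. No test was made at these levels.

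The 4 comparisons that involve the LKO label are set side by side in the plot of fold changes. In untreated liver 7 of 7 tested genes were lower in LKO by sign, where 76.1% of all tested genes were, and their median log2 fold change was -0.98 against -0.33 for all genes. The median of the summed hepatocyte markers was also lower in untreated LKO, at 27048.22 TPM (17448.12 to 37785.61) against 47553.56 TPM (37651.64 to 58006.02), as was that of the pericentral ones, at 1939.97 TPM (696.61 to 3158.78) against 4551.67 TPM (1235.79 to 7610.26). The ranges overlapped for both lists, and their part in the result was not tested. In this comparison 60 genes passed (0.433%; 36 lower, 0.26%), and 0 of the 7. Before adjustment 4 of the 7 had a limma p under 0.05, namely Rdh11, Rdh16, Dhrs3 and Cyp26a1, against 4.15% of all genes. For 3 of them, all but Rdh16, the groups did not overlap, LKO being lower, against 8.97% of all genes in that direction.

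In nontumour liver after DEN 7 of 7 were again lower in LKO by sign, where 62.0% of all genes were, with medians of -0.85 and -0.19. Before adjustment only Rdh16 had a limma p under 0.05, against 13.1% of all genes, and 0 of the 7 were without overlap, against 4.06%. In tumours against DEN WT 7 of 7 were lower by sign, where 47.1% of all genes were, with medians of -0.91 and 0.04. There Cyp26a1 and Rdh16 had a limma p under 0.05 before adjustment, against 10.5% of all genes, and 0 of the 7 were without overlap, against 3.19%. The latter 2 comparisons share their DEN WT libraries, so their signs are not independent.

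**Figure D4:**
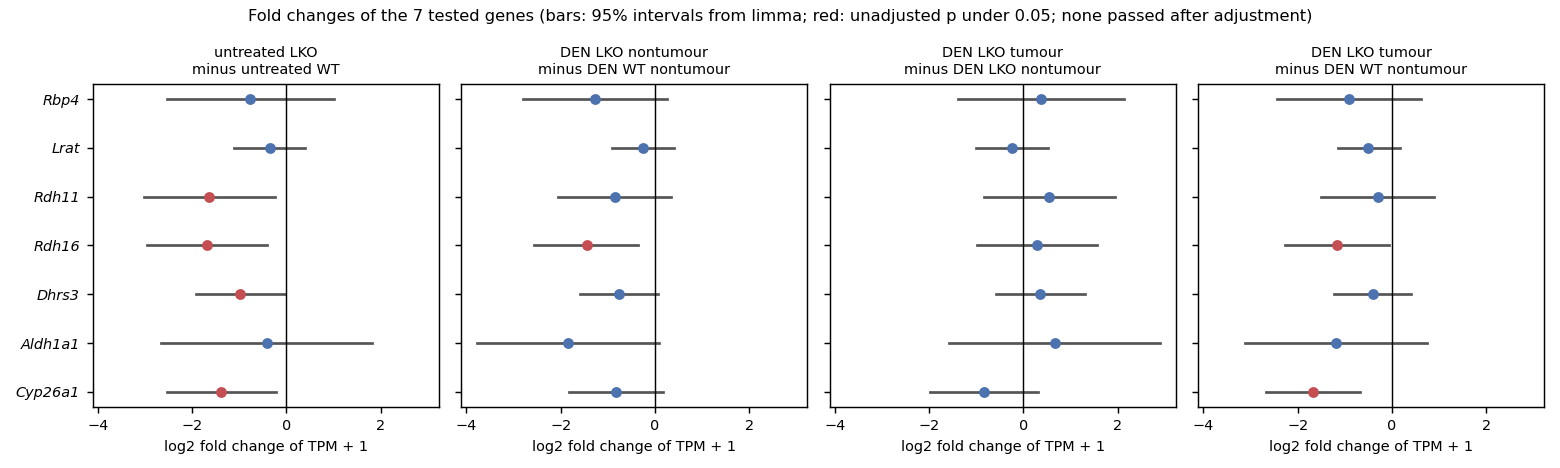
Log2 fold changes of TPM + 1 (horizontal axis) for the 7 tested genes in 4 comparisons, with 95% intervals from limma; red points had a p under 0.05 before adjustment and none passed after it. All 7 points lie below 0 in the 3 comparisons with WT, whereas 5 of 7 lie above 0 for tumour over nontumour LKO liver.

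Between LKO tumours and LKO nontumour liver, 5 of the 7 were higher and 2 lower by sign, with a median of 0.36 against 0.23 for all genes. By limma 0 genes of the table passed there and 2.74% had a p under 0.05 before adjustment, of the 7 genes 0. The change of Aldh1a1, 0.66 ± 1.06 (SE), turned to -0.21 without tumour number 3, the library with the highest Rdh11, Rdh16, Dhrs3, Aldh1a1 and Rbp4 of its group and the lowest Cyp26a1. In WT liver with DEN against without, 0 genes passed by limma (0.685% had a p under 0.05 before adjustment, 0 of the 7), and the members lay between -0.64 ± 0.47 for Cyp26a1, which was -0.04 without untreated WT number 1, and 0.21 ± 0.73 for Rbp4. In LKO liver DEN nontumour libraries were below all untreated ones for Aldh1a1 alone among the 7, by a very small margin (63.46 against 63.57 TPM), at -1.31 ± 1.06 (SE; limma adjusted p = 1), where 2.46% of all genes were lower without overlap and 9 genes passed (0.0649%). A p under 0.05 before adjustment was found there for 5.96% of all genes and 0 of the 7. The genotype effects with and without DEN differed most for Aldh1a1, by -1.42 ± 1.41 (SE; limma adjusted p = 1). By limma 0 genes passed that test, and 2.39% had a p under 0.05 before adjustment, of the 7 genes 0.

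Other genes of retinoid metabolism were taken from a list of 46, of which 34 were tested. In tumours against DEN WT 1 rose and 0 fell by limma, where 0.26% of all genes rose, and in the other comparisons 0 passed. The gene that rose was Lpl, lipoprotein lipase, which releases fatty acids and retinol from lipoproteins. It was at 8.98, 53.69 and 43.26 TPM in tumours and at 2.0 to 5.51 TPM in DEN WT, without overlap, a log2 fold change of 2.73 ± 0.52 (SE; limma adjusted p = 0.0219). The call was lost with a term for XX or XY, where the change was 1.32 ± 0.40 (limma adjusted p = 0.535), without DEN WT number 3 (adjusted p = 0.0552) or number 5 (0.0544), without tumour number 2 (0.164) or number 3 (0.109), in a fit of the compared groups alone (0.15) and with no filter on low values (0.057). Lpl was also at 23.22 and 20.58 TPM in the 2 XY libraries of DEN LKO nontumour liver and at 4.9 TPM in the XX library. The libraries with the highest Lpl after DEN were thus all XY, but all of them were also labelled LKO. The XX libraries labelled LKO had mitochondrial shares of 36.88% and 31.44%. Without DEN, Lpl was at 1.68, 2.07 and 0.65 TPM in LKO, all XY, and at 1.74, 1.94 and 1.18 TPM in WT, all XX. The parts of sex, genotype and that share were not tested.

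Among those that did not pass, Rdh16f2, a near copy of Rdh16, had the largest difference of the list in untreated liver. It was at 300.63, 153.05 and 59.25 TPM in WT and at 14.28, 5.81 and 14.9 TPM in LKO, a log2 fold change of -3.57 ± 0.81 (SE; limma adjusted p = 0.0686) that passed under median-ratio scaling (-3.10, adjusted p = 0.0194), with TPM rescaled to nonmitochondrial genes (-3.42, adjusted p = 0.0359) and without the 3 libraries labelled WT with low Ftcd (-4.19, adjusted p = 0.00785). Here too the groups were XX and XY, and the part of sex cannot be told apart from that of the knockout. Retsat, which saturates retinol, had a mean of 22.7 TPM in DEN LKO nontumour liver and 138.8 TPM in DEN WT (-2.33 ± 0.80, SE; limma adjusted p = 0.331). Rarb, the retinoic acid receptor whose gene is itself a target of the receptors, was at 20.62, 3.81 and 4.51 TPM in DEN LKO nontumour liver and at 0.1 to 8.03 TPM in DEN WT (1.92 ± 0.70, SE; limma adjusted p = 0.335). Without the low-Ftcd libraries, where 8.35% of all genes passed, both passed, at -2.97 (limma adjusted p = 0.032) and 2.18 (limma adjusted p = 0.0432), as did Rdh16f2, at -3.07 (limma adjusted p = 0.0168). With mitochondrial share as a term they were -0.73 and 0.52, and Rarb was at 1.23 without DEN LKO nontumour number 1.

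A list of 10 known targets of retinoic acid receptors, which includes Cyp26a1, Cyp26b1, Dhrs3 and Lrat, had 6 tested genes, and 0 of them passed limma in any comparison. Their median log2 fold change was -0.65 in untreated LKO over WT, -0.15 in LKO over WT after DEN and -0.01 in tumours over DEN WT. The same medians for all tested genes were -0.33, -0.19 and 0.04. By sign 6, 4 and 3 of the 6 were lower in these comparisons, where 76.1%, 62.0% and 47.1% of all tested genes were. The 6 include the members Cyp26a1, Dhrs3 and Lrat, already counted above.

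Pearson's r of log2(TPM + 1) between members, given as a description over libraries that share groups and totals, ran from 0.63 (Dhrs3 and Aldh1a1) to 0.83 (Rbp4 and Aldh1a1) among Rbp4, Rdh11, Rdh16, Dhrs3 and Aldh1a1. With group means removed these pairs ran from 0.51 to 0.85. Between Cyp26a1 and the same 5 genes r ran from 0.33 (Rbp4) to 0.61 (Rdh16), and from -0.13 to 0.39 with group means removed. For Cyp26b1 it ran from 0.09 (Dhrs3) to 0.50 (Rdh16 and Aldh1a1), and from -0.12 to 0.46. Lrat was closest to Cyp26b1 (0.70, and 0.73 with group means removed), a value that includes the DEN WT library high in both. The genes most like the others by the same rule were Sap18b (0.984), Atp6v0c (0.982) and Atp5l (0.979) for Rbp4, Acot4 (0.941), Mat1a (0.931) and Cdo1 (0.928) for Rdh16, Echdc3 (0.913), Mgmt (0.912) and Mettl7b (0.91) for Dhrs3, and Bpnt1 (0.962), Sdha (0.957) and Yipf1 (0.957) for Aldh1a1. The replicate 1 libraries of the 3 DEN groups, all XX and with mitochondrial shares of 31.44% to 38.82%, were alike in the abundant members: Rbp4 was at 579.33, 898.02 and 531.79 TPM and Aldh1a1 at 35.31, 56.81 and 46.02 TPM in WT, LKO nontumour liver and tumour.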

How the data were processed

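The authors deposited 1 gene table of TPM values for the 18 libraries. TRIzol extraction and a TruSeq kit were used, per the labels' protocols. The submitters' processing notes name the tools fastp, HISAT and RSEM and the build mm10, with versions and settings not given in the sources used here. Libraries sum to between 999999 and 1000001 TPM, so depth cannot be recovered and no counting interval was computed. The authors' group means (equal to the library means within 3.3e-05 TPM) were not used. Columns of other samples numbered 0.

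Genes that reached 1 TPM in 3 or more libraries were tested on log2(TPM + 1) with limma 3.58.1 in R 4.3.3. A single fit held the 5 group means (13 residual degrees of freedom), 2-sided, with Benjamini-Hochberg adjustment within each comparison over 13872 genes. The fit was tested on simulated data. Permutation tests and figures used Python 3.11.15, scipy 1.17.1, numpy 2.4.6, pandas 2.3.3 and matplotlib 3.10.9. Coordinates are from GENCODE M21 for mm10, promoter sequences from RefSeq. The rule for named genes was the 8 members and Ftcd whatever their values, genes of the 46-gene list that passed and at most 6 others, and the 3 genes most like each member. The members, lists and tests were chosen with earlier results of these data known. Libraries with a mitochondrial share above 30% were left out in an alternative chosen after seeing the data, as was rescaling to nonmitochondrial genes. Same-numbered libraries did not deviate together in every pair of any comparison, so numbers were not treated as pairs. The other alternatives were a pseudocount of 0.1, no filter, median-ratio scaling, the compared groups alone, a replicate block, terms for XX or XY and for mitochondrial share, and leaving out each library or the 3 libraries labelled WT with low Ftcd.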

Additional observations from a re-analysis of the deposited data

Results flagged for a closer look

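Among the 6 DEN WT libraries, number 6 stood apart in both low-level members. Lrat was at 3.1 TPM there, against 1.22 TPM in the next library, and Cyp26b1 was at 2.71 TPM, against 0.63 TPM. The gap to the next library was 0.664 and 0.806 of the whole range of the group, above Dixon's 95% critical value for 6 values. For a single gene with normally spread values, chance exceeds it in about 1 of 20 groups. The rule was applied to all 8 members at both ends, without adjustment for that search. It was applied to TPM, whose spread is not normal when 1 value is far above the rest. The flags are thus shown for TPM only and may not hold on log2 values. Of the 16 stellate cell markers, 8 were highest of the 18 libraries there, among them Dcn (125.79 TPM), Colec11 (46.87 TPM), Reln (28.19 TPM) and Hgf (4.92 TPM). The sum over the 16 was 409.92 TPM, below the 458.1 TPM of untreated WT number 2. The summed markers of liver endothelial cells (147.3 TPM), Kupffer cells and macrophages (363.83 TPM), periportal hepatocytes (4946.83 TPM) and red cells (3845.78 TPM) were also the highest of the 18 in this library. For median-ratio scaling this library had the highest factor of the 18, 1.89, so the median gene was high there too by TPM. How many of all tested genes were highest there was not computed. The parts of this general shift and of cell composition in the Lrat and Cyp26b1 values of this library were not tested.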

How the results depend on the processing

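The number of genes passing in the whole table moved with many choices, in the order untreated LKO over WT, DEN LKO nontumour over DEN WT, tumour over nontumour, tumour over DEN WT, DEN LKO nontumour over untreated LKO, and the difference between genotype effects. It was 60, 8, 0, 69, 9 and 0 with all libraries, and 0 for DEN WT over untreated WT under every setting run. It was 2 and 2 for the second and the fifth with a pseudocount of 0.1, and 21, 11 and 2 for the second, the third and the sixth with no filter. Median-ratio scaling gave 96, 11, 1, 313, 19 and 4. The compared groups alone gave 0, 3 and 1 for the second, the fourth and the sixth. Without the libraries labelled WT with low Ftcd it was 1159, 1, 420 and 2 for the second, the third, the fourth and the sixth. A term for XX or XY gave 26, 4, 9, 189 and 1 for all but the third, and the mitochondrial share as a covariate gave 0, 161 and 1 for the second, the fourth and the sixth. Of the alternatives chosen after seeing the data, rescaling to nonmitochondrial genes gave 112 for the fourth, and leaving out the libraries with a mitochondrial share above 30% gave 356, 16, 575, 47 and 1 for all but the first. Leaving out 1 library at a time gave 33 to 44, 0 to 202, 0 to 21, 27 to 485, 0 to 20 and 0 to 10. Median-ratio scaling moved the median of all genes from -0.33 to 0.00 in untreated LKO over WT, and the higher genes among those called from 40% to 58.3%. The cause of these changes was not tested, and the settings that leave out libraries also differ in the number of libraries.

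The count of members passing was 0 in every comparison. It became 2 (Aldh1a1 and Rdh16) in DEN LKO nontumour over DEN WT without the low-Ftcd libraries, and 1 (Cyp26a1) in tumour over DEN WT without those libraries or without the libraries of high mitochondrial share. Leaving out single libraries gave 0 to 1 there. Of 505 values of 28 fold changes under the alternatives, 473 kept their direction and side of the threshold, 13 newly passed, 8 no longer passed (all for Lpl) and 11 turned. In untreated LKO over WT, Rbp4 turned to 0.49 and Aldh1a1 to 0.99 with the mitochondrial share as a covariate. Aldh1a1 there turned to 0.08 under median-ratio scaling, to 0.11 without the libraries of high mitochondrial share, and ran from -1.19 to 0.51 when single libraries were left out. In DEN LKO nontumour over DEN WT, Rbp4 turned to 0.25 and Rdh11 to 0.05 with that covariate. In tumour over DEN WT Aldh1a1 turned to 0.05 with it, and in tumour over nontumour LKO it ran from -0.21 to 1.1 when single libraries were left out. Depth is unknown, so what the low values of Lrat and Cyp26b1 can resolve is not known.

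With the replicate number as a block, the counts of all genes were 10, 0, 0, 0, 3 and 0 in the same order, and Lrat turned to 0.02 in DEN LKO nontumour over DEN WT. Lpl did not pass in tumour over DEN WT (2.89, limma adjusted p = 0.473), and the members passing stayed at 0. Same-numbered libraries correlated at 0.61, 0.00 and 0.43 between tumour and DEN WT, at 0.35, 0.30 and -0.03 between tumour and nontumour LKO, at 0.14, -0.05 and -0.24 between the nontumour DEN groups and at -0.15, 0.18 and -0.26 between the untreated groups. The numbers were therefore not counted as pairs. Same-numbered tumour and nontumour LKO libraries matched in being XX or XY, and the labels do not say whether they came from 1 animal.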
